A study of Mus musculus with 15 samples.

Results

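Adenosine handling was described through 10 genes tied to the formation, uptake, sensing and removal of this nucleoside. They were chosen by name from the 46123 genes counted in mouse hematopoietic stem cells (HSC). They are Entpd1, Nt5e, Adora2a, Adora2b, Slc29a1, Slc29a3, Ada, Adk, Pnp and Dpp4, and all 10 had reads in all 15 libraries and passed the filter on low counts in each comparison. The libraries were made from wild type C57BL/6 mice aged 8-10 weeks, each from 100 bone marrow HSC. Fresh cells came from untreated mice (Untreated, 4 libraries) and from mice at day 4 after 5-fluorouracil (5-FU day4, 4 libraries), an antimetabolite that kills dividing blood cells. Cultured cells were grown without drug (Control, 3 libraries) or with nifedipine (Nifedipine, 4 libraries), a blocker of L-type calcium channels, and were sorted while within 3 divisions. The sources used here do not state drug doses, the length of culture or any pooling of mice. Nor do the labels say that replicates are separate mice or cultures, and p-values therefore reflect no more than the spread among these libraries, which may be technical.

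Outside the cell, CD39 (the product of Entpd1) removes phosphates from ATP and ADP, and CD73 (Nt5e) turns the resulting AMP into adenosine. Adenosine then acts on G protein-coupled receptors, of which those encoded by Adora2a and Adora2b raise cyclic AMP, or enters cells through equilibrative transporters such as ENT1 (Slc29a1). Inside, adenosine kinase (Adk) returns it to AMP, adenosine deaminase (Ada) turns it into inosine, and purine nucleoside phosphorylase (Pnp) splits inosine for salvage. CD26 (Dpp4) is a surface peptidase that in humans is known to hold ADA at the cell surface. Whether it does so in these mouse cells was not tested.

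Pnp has a near-identical neighbour, Pnp2, and the part of their coding sequence where they differ most is shown because it limits how reads can be told apart. Over 870 aligned coding bases, 852 were identical (97.9%), 18 differed, and the longest run without a difference was 292 bases. Below is the stretch of 120 bases with the most differences, bases 747 to 866 of the Pnp reading frame and 792 to 911 of that of Pnp2, from the GENCODE M21 transcripts. Capitals mark the 8 bases that differ.
Pnp: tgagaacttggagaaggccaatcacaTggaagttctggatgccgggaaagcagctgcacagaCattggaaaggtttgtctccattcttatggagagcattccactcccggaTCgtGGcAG
Pnp2: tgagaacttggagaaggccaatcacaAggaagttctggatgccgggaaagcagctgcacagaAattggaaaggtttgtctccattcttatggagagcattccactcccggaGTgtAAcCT
The sources used here do not say how reads matching both genes were assigned, so the split between the pair is uncertain.

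The 250 bases before the annotated starts of Ada and Adk, the 2 enzymes that compete for adenosine inside the cell, are shown because both genes were called in the same direction as each other in all 3 comparisons below. Both come from RefSeq on GRCm38.p6, Ada from the minus strand at chr2:163750240-163750489 and Adk from the plus strand at chr14:21052324-21052573. Capitals mark GC boxes, the letters GGGCGG read on either strand.
Ada: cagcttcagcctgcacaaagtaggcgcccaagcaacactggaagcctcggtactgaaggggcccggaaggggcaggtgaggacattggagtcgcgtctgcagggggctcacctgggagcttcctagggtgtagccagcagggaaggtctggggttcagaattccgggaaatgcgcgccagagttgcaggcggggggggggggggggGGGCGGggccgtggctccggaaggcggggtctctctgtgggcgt
Adk: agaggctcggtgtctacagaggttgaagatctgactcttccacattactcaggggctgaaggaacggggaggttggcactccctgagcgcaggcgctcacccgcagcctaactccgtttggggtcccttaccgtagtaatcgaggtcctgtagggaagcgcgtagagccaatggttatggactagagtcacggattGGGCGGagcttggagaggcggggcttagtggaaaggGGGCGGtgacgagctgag
Ada held 1 such match and Adk 2, and 6 of the 9 members with a RefSeq promoter held at least 1, against 32.7% of 32851 promoters of the same length. The GC content was 67.2% for Ada and 58.8% for Adk, against a median of 52.4% over those promoters. The full cyclic AMP response element TGACGTCA was in none of the 9 and in 1.55% of all. Its core TGACG, whose 5 letters lie within the full element, was in the windows of Adk and Entpd1 and in 17.8% of all. The E-box CACGTG was in none of the 9 and in 6.02% of all, and TATAAA was in that of Dpp4 alone and in 12.4% of all. These matches are descriptions of letters only.

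Levels below are CPM, exon reads normalised to library size and scaled with TMM over all 15 libraries, and CPM per kilobase of exon where genes are compared with each other. Exon reads ranged from 6171730 to 16685285 in Untreated, 9775640 to 17397392 in 5-FU day4, 20145079 to 26673045 in Control and 17582453 to 22372771 in Nifedipine. All 8 HSC markers had reads in every group, with a summed level of 4324 to 4629 CPM in Untreated, 3015 to 3273 in 5-FU day4, 1117 to 1174 in Control and 2009 to 2291 in Nifedipine. All 6 dividing-cell markers had reads in every group, with sums of 219.3 to 720.4, 2552 to 2881, 2613 to 2873 and 1854 to 2015 CPM in the same order. Untreated 3 gave the highest of the Untreated values for the dividing-cell markers, and Untreated 2 stood apart by stromal markers, given beside Nt5e. In bulk samples fewer cells of a type and less RNA per cell cannot be told apart.

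At day 4 after 5-FU, genes for adenosine uptake by ENT1 and for its removal were higher, and the genes for CD73 and CD26 were lower. Of the 10 genes, 4 rose (Pnp, Adk, Slc29a1 and Ada, by 1.15, 0.97, 0.89 and 0.46 on the log2 scale) and 3 fell (Nt5e by 1.30, Dpp4 by 1.02 and Slc29a3 by 0.31), at an adjusted p of 0.05 or less. Neither receptor nor Entpd1 passed the test. The calls of Nt5e, Ada and Slc29a3 were each lost under some alternative fits, given beside the genes. Over all 13384 genes tested 50.5% were called, which is the background for the 7 of 10, with 26.7% called higher and 23.8% lower. The groups did not overlap in CPM for 6 of the 10, against 47.3% of all genes tested.

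In culture, nifedipine went with a higher CD39 transcript and with lower Ada and Adk. Entpd1 rose by 1.51 on the log2 scale, Slc29a1 by 0.43 and Slc29a3 by 0.38, while Dpp4 fell by 0.70, Ada by 0.62 and Adk by 0.56. That is 3 higher and 3 lower of 10, where 49.9% of 12807 genes tested were called (25.8% higher and 24.2% lower). The groups did not overlap for 6 of the 10 genes, against 51.3% of all tested. Without Control 2 the count of called members was 4 of 10, the lowest among the fits that left out 1 library.

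Between fresh and cultured cells, Dpp4, Entpd1, Adora2a, Slc29a3 and Slc29a1 were lower in Control than in Untreated, by 3.64, 2.91, 1.63, 1.06 and 0.71 on the log2 scale in that order (negative as Control minus Untreated). Adk, Ada and Pnp were higher, by 1.38, 0.66 and 0.65. These 8 of 10 calls, 3 higher and 5 lower, stand beside 72.0% called over 13520 genes tested (35.8% higher and 36.1% lower), and the groups did not overlap for the same 8 genes, against 71.9% of all tested. Culture, experiment and sequencing cannot be told apart in this comparison. It shares its Untreated libraries with the 5-FU comparison and its Control libraries with the nifedipine comparison, so the values of the 3 comparisons are set side by side only.

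**Figure D1:**
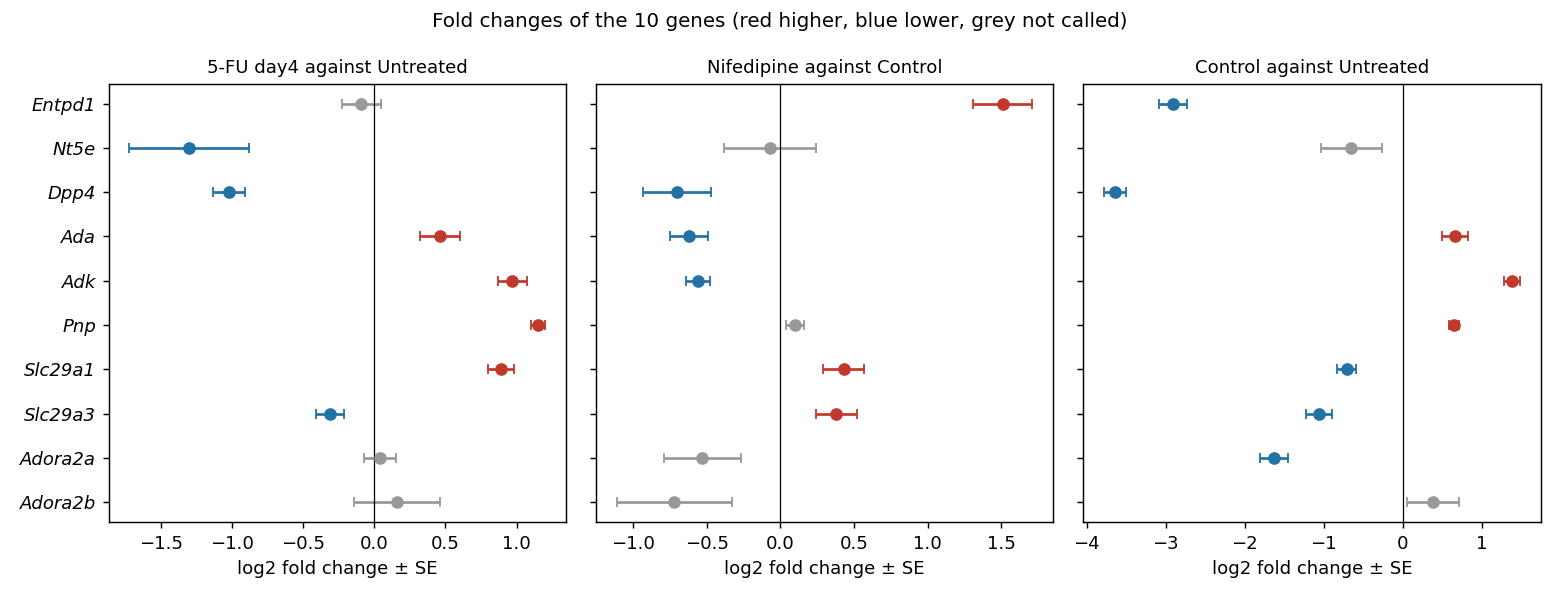
Log2 fold change (dot) with its standard error (bar) of the 10 genes in the 3 comparisons, each panel with its own horizontal scale; red was called higher, blue lower, grey not called. Entpd1 stands out to the right in nifedipine against Control (1.51) and, with Dpp4 (-3.64), to the left in Control against Untreated (-2.91).

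For scale, Pnp was the most abundant member per kilobase of exon in every group, at 69.3 CPM per kilobase ± 3.72 (SD, n = 4) in Untreated and 152.6 ± 5.57 (SD, n = 4) in 5-FU day4. Nt5e and Adora2b were the lowest in Untreated, at 1.92 ± 0.90 and 1.75 ± 0.526 CPM per kilobase. Dpp4 went from the second place of the 10 in Untreated (14.1 ± 0.945) to the last in Nifedipine (0.681 ± 0.0816).

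**Figure D2:**
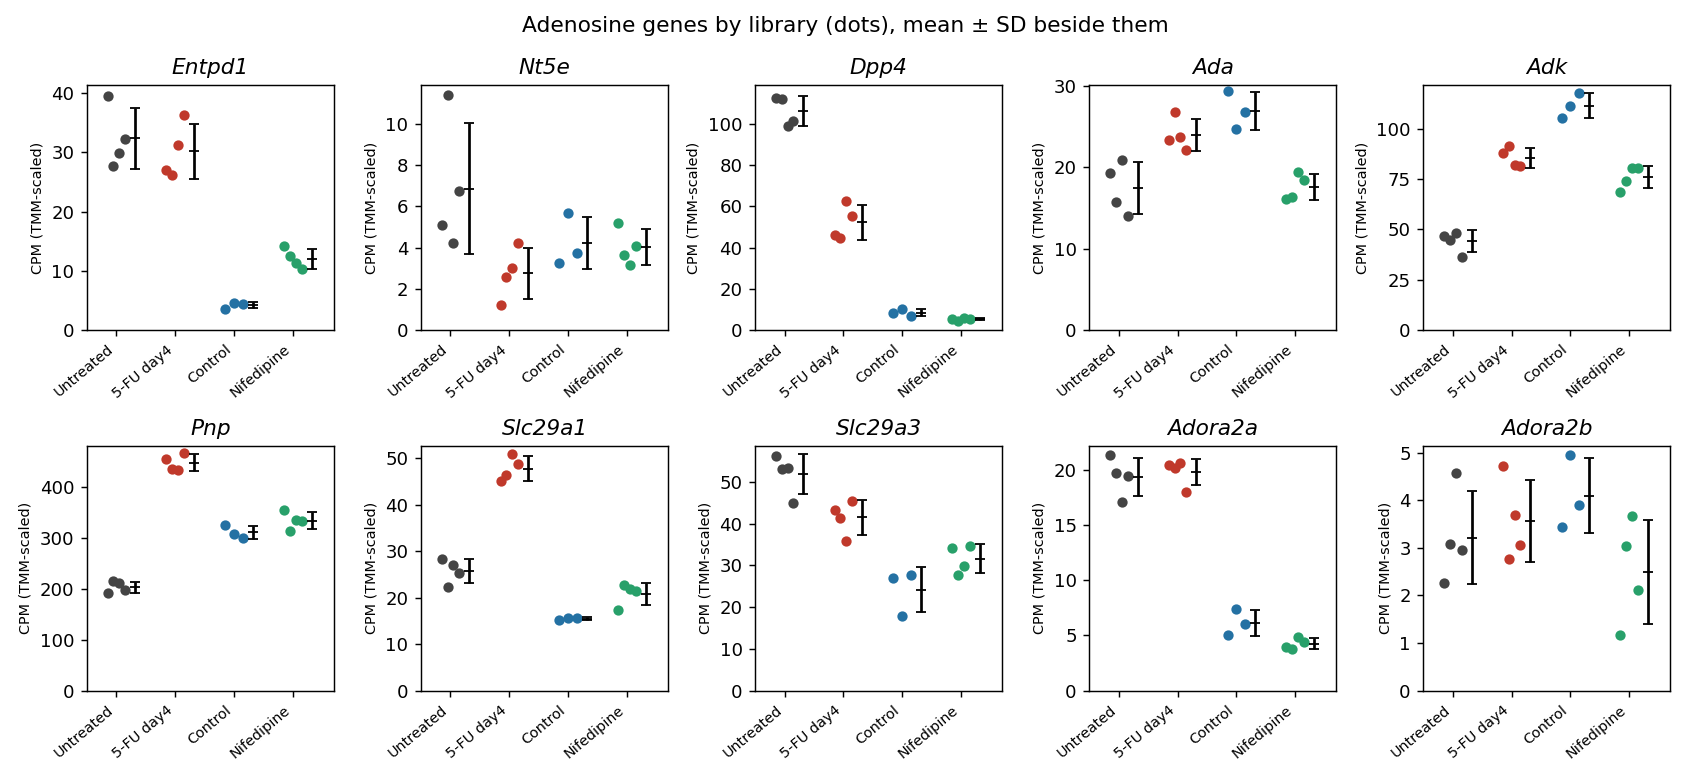
CPM of each of the 10 genes in each library (dots) with the group mean and SD beside them, on linear axes from 0, for Untreated, 5-FU day4, Control and Nifedipine. The 3 Control values of Entpd1 (3.60 to 4.57) lie below those of every other group, and the 4 5-FU day4 values of Slc29a1 (45.0 to 50.9) above those of every other group.

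Of the surface enzymes, Entpd1 (chr19:40612366-40741602, mm10, as all gene coordinates here) had 39.6, 27.7, 29.9 and 32.2 CPM in Untreated 1 to 4 and 27.0, 26.2, 31.2 and 36.3 in 5-FU day4 1 to 4. Control 1 to 3 gave 3.60, 4.57 and 4.43 CPM, and Nifedipine 1 to 4 gave 14.1, 12.4, 11.3 and 10.2. The fresh groups overlapped, every cultured library was below every fresh one, and every Nifedipine library was above every Control one. The means were 32.3 ± 5.14 (SD, n = 4), 30.2 ± 4.65 (n = 4), 4.20 ± 0.529 (n = 3) and 12 ± 1.65 CPM (n = 4).

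The log2 fold change of Entpd1 was 1.51 (SE 0.20, adjusted p = 7.36e-06) for nifedipine, a 2.85-fold higher level, and -2.91 (adjusted p = 4.56e-07) for Control against Untreated. For 5-FU it was -0.09 (SE 0.14, adjusted p = 0.593). The HSC marker sum, mostly Hlf and Kit, had the same order of groups (Untreated, 5-FU day4, Nifedipine, Control). By mean, so did each of Procr, Hlf, Fgd5, Kit, Ly6a and Mllt3. From Control to Nifedipine, Procr went from 6.66 to 26.6 CPM and Ly6a from 7.99 to 35.6. The remaining markers departed from the order. Slamf1 was highest in Control (45.3 CPM) and lowest in Nifedipine (22.3), and Mecom was higher in 5-FU day4 (690.1) than in Untreated (610.3). CD39 is also made by macrophages, whose 6 markers summed to 12.4 to 134.4 CPM in Untreated, 30.9 to 67.8 in 5-FU day4, 4.33 to 6.30 in Control and 8.85 to 12.7 in Nifedipine. In Control Adgre1, C1qa, C1qb and Vcam1 had 0 reads, and in Nifedipine C1qa, C1qb and Vcam1 had 0. Vcam1 was the largest part in Untreated and 5-FU day4 (means 65.4 and 25.3 CPM), while Cd68 was highest in 5-FU day4 (10.3). From Control to Nifedipine, Cd68 went from 4.42 to 7.89 CPM and Csf1r from 0.827 to 2.56. The part of either marker list in the Entpd1 values was not tested. The 4 predicted features that overlap Entpd1 had 0 reads in every library.

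Nt5e (chr9:88327609-88372089) was low throughout, with 22 to 111 reads a library. Untreated 1 to 4 gave 5.08, 11.4, 4.23 and 6.75 CPM, and 5-FU day4 1 to 4 gave 1.22, 2.57, 2.99 and 4.22. The cultured libraries gave 3.26, 5.66 and 3.76 in Control 1 to 3 and 5.20, 3.63, 3.16 and 4.09 in Nifedipine 1 to 4. The fresh groups did not overlap but nearly met, at 4.22 CPM in 5-FU day4 4 and 4.23 in Untreated 3. Untreated 2 was the highest of all 15 libraries. The cultured groups lay between the fresh groups by mean, and overlapped each other and both fresh groups. After 5-FU, Nt5e fell by 1.30 on the log2 scale (SE 0.42, adjusted p = 0.0242). Leaving out Untreated 2 ended the call (log2 fold change -0.94, adjusted p = 0.0805), as did leaving out 5-FU day4 1 (-1.06, adjusted p = 0.0531) or 5-FU day4 2 (-1.29, adjusted p = 0.057). Nt5e had a log2 fold change of -0.07 for nifedipine (adjusted p = 0.872) and -0.65 for Control against Untreated (adjusted p = 0.155).

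CD73 is also a known marker of mesenchymal stromal cells, and stromal markers differed between the fresh libraries. All 6 markers (Cxcl12, Lepr, Col1a1, Col1a2, Pdgfra and Kitl) had reads in both fresh groups. Their sum was 164.7, 1655, 10.4 and 330.1 CPM in Untreated 1 to 4 and 8.66, 11.1, 9.39 and 378.8 CPM in 5-FU day4 1 to 4. In the cultured libraries it was 4.89 to 14.1 CPM, with Cxcl12 at 0 reads. Within each fresh group the library with the highest stromal sum, Untreated 2 and 5-FU day4 4, also had the highest Nt5e. Leaving out both, a choice made after seeing the data, gave a log2 fold change of -1.24 (adjusted p = 0.0322). Leaving out Untreated 3, with the lowest stromal sum of its group, and 5-FU day4 4 gave -1.76 (adjusted p = 0.00831). Neither fit evens out the stromal sums, as both keep Untreated 1 and 4 (164.7 and 330.1 CPM). The 5-FU day4 libraries kept beside them had 8.66, 11.1 and 9.39 CPM. The part of stromal RNA in the Nt5e values was not tested.

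**Figure D3:**
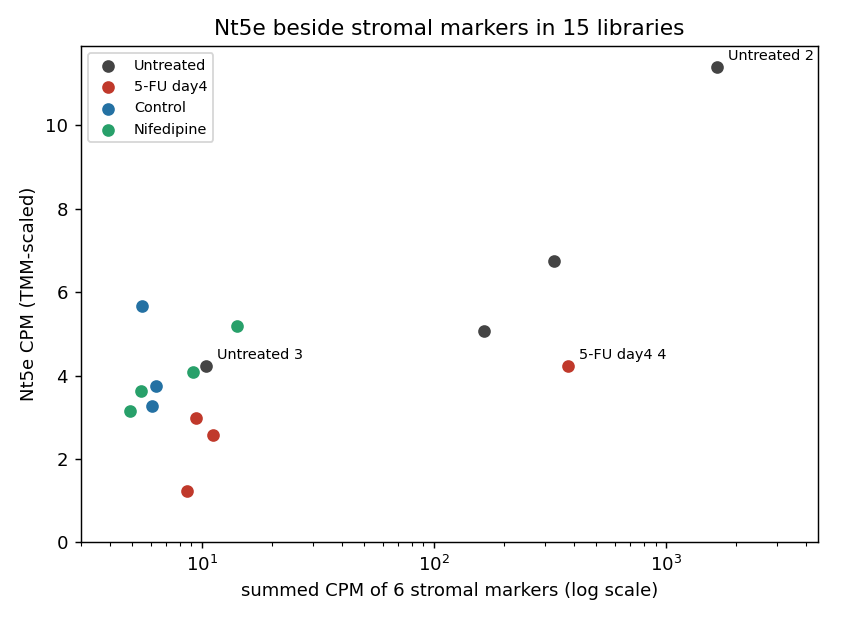
Nt5e (vertical, CPM) against the summed CPM of 6 stromal markers (horizontal, log scale) in the 15 libraries, coloured by group. Untreated 2 lies apart at the top right (1655 and 11.4), while 5-FU day4 4 (378.8 and 4.22) lies at the level of Untreated 3 (10.4 and 4.23).

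Per kilobase, Entpd1 exceeded Nt5e 4.09 ± 1.80 times in Untreated (SD of the ratio over libraries, n = 4) and 9.51 ± 4.61 times in 5-FU day4 (n = 4). In Control the ratio was 0.764 ± 0.146 (n = 3) and in Nifedipine 2.26 ± 0.383 (n = 4). Nt5e was thus above Entpd1 in each of the 3 Control libraries (0.598 to 0.875) and below it in each of the other 12 (1.80 to 16.4).

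Of the receptors, Adora2a (chr10:75316862-75334792) had 21.3, 19.7, 17.1 and 19.4 CPM in Untreated 1 to 4 and 20.4, 20.2, 20.6 and 18.0 in 5-FU day4 1 to 4. Control 1 to 3 gave 5.03, 7.35 and 6.00, and Nifedipine 1 to 4 gave 3.93, 3.75, 4.84 and 4.43. The fresh groups overlapped, and every cultured library was below every fresh one. The Nifedipine libraries all lay below the Control libraries.

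Adora2a was 1.63 lower on the log2 scale in Control than in Untreated (log2 fold change -1.63, adjusted p = 2.58e-05). Its change with 5-FU was 0.04 (SE 0.11, adjusted p = 0.783). With nifedipine it was -0.53 (SE 0.26, adjusted p = 0.0968), which did not pass, although a fit of all 4 groups together called it (adjusted p = 0.00982).

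The lower-affinity receptor gene Adora2b (chr11:62248984-62266452) had 21 to 91 reads a library. It gave 2.26, 3.08, 4.57 and 2.96 CPM in Untreated 1 to 4 and 4.72, 2.77, 3.7 and 3.07 in 5-FU day4 1 to 4. The cultured libraries gave 3.43, 4.96 and 3.91 CPM in Control 1 to 3 and 1.17, 3.05, 3.67 and 2.12 in Nifedipine 1 to 4. All neighbouring groups overlapped, and no comparison passed (log2 fold changes 0.16, -0.72 and 0.38, adjusted p = 0.689, 0.139 and 0.319 for 5-FU, nifedipine and Control against Untreated). Per kilobase, Adora2a exceeded Adora2b 2.04 to 5.11 times in the Untreated and 2.35 to 3.95 times in the 5-FU day4 libraries. In Control the ratio was 0.797 to 0.832 and in Nifedipine 0.668 to 1.82.

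The cyclic AMP-lowering receptors were barely read. Adora1 had 8 reads, all in Untreated 1, and 0 in the other 14 libraries. With 0 reads in a group, a level of up to 0.0511 CPM in 5-FU day4, 0.0442 in Control and 0.0367 in Nifedipine is allowed (3 reads over the group, counting error only). Adora3 had 0 reads in Untreated, 5 in 5-FU day4 1, 3 and 30 in Control 2 and Control 3, and 9 in Nifedipine 2. Adora3 overlaps Tmigd3 and Adora1 overlaps Mybph, and the library kit does not mark strand. Neither gene was abundant enough to be tested.

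Of the transporters, Slc29a1 (chr17:45585200-45599603) had 28.4, 22.3, 27.1 and 25.3 CPM in Untreated 1 to 4 and 45.0, 46.4, 50.9 and 48.8 in 5-FU day4 1 to 4. Control 1 to 3 gave 15.1, 15.7 and 15.6, and Nifedipine 1 to 4 gave 17.3, 22.7, 21.8 and 21.5. The 5-FU day4 libraries were the highest without overlap, the Control libraries the lowest without overlap, and the Nifedipine and Untreated groups overlapped. Slc29a1 rose 1.86-fold after 5-FU (log2 fold change 0.89, SE 0.09, adjusted p = 2.75e-05). With nifedipine it was higher by 0.43 (SE 0.14, adjusted p = 0.0145), a call lost without Control 1 (0.41, adjusted p = 0.0504). Control was lower than Untreated (log2 fold change -0.71, adjusted p = 0.000586), and -0.47 with the read total behind the deposited RPKM as library size.

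Slc29a3 (chr10:60712072-60752849), which codes for the transporter of lysosomal and other inner membranes, had 56.3, 53.1, 53.3 and 45.0 CPM in Untreated 1 to 4 and 43.3, 41.3, 35.9 and 45.5 in 5-FU day4 1 to 4. The cultured libraries gave 27.1, 17.9 and 27.7 in Control 1 to 3 and 34.3, 27.6, 29.9 and 34.7 in Nifedipine 1 to 4. Untreated 4 fell inside the 5-FU day4 range and Nifedipine 2 inside the Control range, while the fresh and cultured groups did not overlap. It was 1.06 lower on the log2 scale in Control than in Untreated (log2 fold change -1.06, adjusted p = 0.000193).

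After 5-FU Slc29a3 fell by 0.31 on the log2 scale (SE 0.10, adjusted p = 0.0224). The call was lost under the RPKM read total (-0.12, adjusted p = 0.40), with a correction for exon length (adjusted p = 0.0711), without Untreated 1 (adjusted p = 0.0657) and without Untreated 2 (adjusted p = 0.0502). With nifedipine it was higher by 0.38 (SE 0.14, adjusted p = 0.0372). That call was lost with the exon length correction (adjusted p = 0.104) and without Control 2 (0.21, adjusted p = 0.228), Nifedipine 1 (adjusted p = 0.0871) or Nifedipine 4 (adjusted p = 0.0947).

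Per kilobase, Slc29a1 and Slc29a3 stood at a ratio of 0.892 to 1.20 in the Untreated libraries and 2.21 to 3.01 in the 5-FU day4 libraries, without overlap. In Control it was 1.18 to 1.86 and in Nifedipine 1.07 to 1.75. Slc29a2, for another equilibrative transporter, was not called in any comparison, with log2 fold changes of -0.16, -0.15 and -0.01 (adjusted p = 0.55, 0.675 and 0.964) for 5-FU, nifedipine and Control against Untreated.

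Of the enzymes that remove adenosine, Ada (chr2:163726571-163750239) had 19.3, 15.7, 20.9 and 14 CPM in Untreated 1 to 4 and 23.4, 26.8, 23.7 and 22.1 in 5-FU day4 1 to 4. Control 1 to 3 gave 29.4, 24.7 and 26.8, and Nifedipine 1 to 4 gave 16.1, 16.4, 19.4 and 18.5. Untreated and Nifedipine overlapped, as did 5-FU day4 and Control, and the first pair lay below the second without overlap. With nifedipine Ada fell by 0.62 on the log2 scale (SE 0.13, adjusted p = 0.000467). After 5-FU it rose by 0.46 (SE 0.14, adjusted p = 0.0187), a call lost with the exon length correction (0.32, adjusted p = 0.0701) and without 5-FU day4 2 (0.40, adjusted p = 0.054). Control was higher than Untreated by 0.66 (adjusted p = 0.00365), and by 0.38 with the exon length correction (adjusted p = 0.0459).

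Adk (chr14:21052574-21448569) had 46.8, 44.9, 48.3 and 36.2 CPM in Untreated 1 to 4 and 87.8, 91.6, 81.9 and 81.3 in 5-FU day4 1 to 4. The cultured libraries gave 105.5, 111.2 and 117.8 in Control 1 to 3 and 68.8, 74.2, 80.6 and 80.3 in Nifedipine 1 to 4. No group overlapped another, in the order Untreated, Nifedipine, 5-FU day4 and Control, though Nifedipine 3 (80.6) was close to 5-FU day4 4 (81.3). Adk rose 1.96-fold after 5-FU (log2 fold change 0.97, SE 0.10, adjusted p = 2.2e-05), fell by 0.56 on the log2 scale with nifedipine (SE 0.08, adjusted p = 1.24e-05) and was 1.38 higher in Control than in Untreated (adjusted p = 1.33e-06).

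Beside these 2 genes the dividing-cell marker sum was also higher in 5-FU day4 and Control than in Untreated and lower in Nifedipine than in Control (ranges above), and its part in the Ada and Adk values was not tested. Its members did not all move together with nifedipine, as Mki67 went from a mean of 1508 to 823.4 CPM, Mcm2 from 415.5 to 256.3 and Ccnb1 from 206.0 to 120.6, while Top2a went from 480.4 to 610.2, Cdk1 from 87.0 to 89.5 and Ube2c from 40.5 to 38.7. The ratio of Adk to Ada per kilobase was 0.893 ± 0.0833 (SD, n = 4) in Untreated, 1.25 ± 0.0577 (n = 4) in 5-FU day4, 1.46 ± 0.177 (n = 3) in Control and 1.52 ± 0.0521 (n = 4) in Nifedipine. Every Untreated library had a ratio of at most 1.00 and every other library one of at least 1.20. Control and Nifedipine overlapped in this ratio (1.26 to 1.58 and 1.46 to 1.59).

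**Figure D4:**
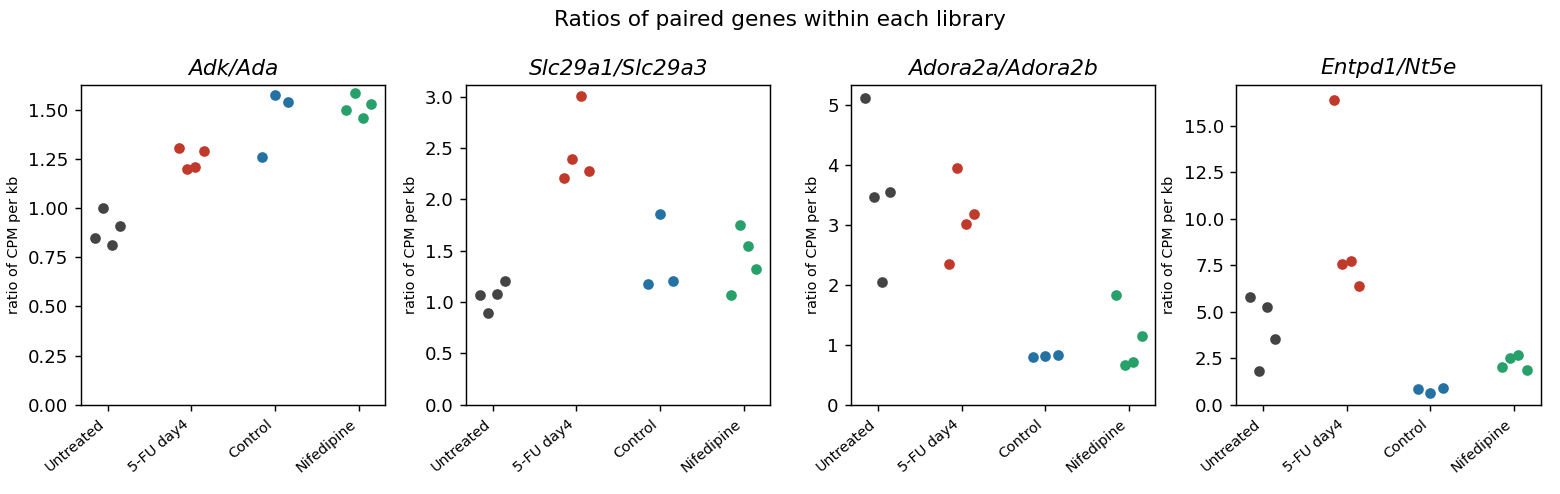
Ratio of CPM per kilobase of exon for 4 gene pairs in each library (dots), on linear axes from 0, by group. Adk to Ada is lowest in Untreated (at most 1.00), Slc29a1 to Slc29a3 is highest in 5-FU day4 (2.21 to 3.01), and the 3 Control libraries lie below 1 for Entpd1 to Nt5e and for Adora2a to Adora2b. Nifedipine 2 (0.668) and Nifedipine 3 (0.716) also lie below 1 for Adora2a to Adora2b.

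Pnp (chr14:50944303-50953412) had 191.8, 215.0, 211.0 and 197.7 CPM in Untreated 1 to 4 and 455.9, 436.7, 433.9 and 468.5 in 5-FU day4 1 to 4. Control 1 to 3 gave 325.4, 307.7 and 301.0, and Nifedipine 1 to 4 gave 354.9, 315.0, 335.7 and 333.4. The Untreated libraries were lowest and the 5-FU day4 libraries highest without overlap, and the cultured groups lay between them and overlapped each other. Pnp rose 2.21-fold after 5-FU (log2 fold change 1.15, SE 0.05, adjusted p = 1.01e-06) and was 0.65 higher in Control than in Untreated (adjusted p = 9.09e-06). With nifedipine its log2 fold change was 0.10 (adjusted p = 0.175).

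Pnp2 (chr14:50956141-50964751) was far lower, and Pnp exceeded it per kilobase 14.9 to 25.3 times in Untreated and 8.44 to 10.9 times in 5-FU day4. It rose by 2.21 on the log2 scale after 5-FU (adjusted p = 9.97e-06) and by 0.67 in Control against Untreated (adjusted p = 0.0345), and was -0.19 with nifedipine (adjusted p = 0.615). Pnp2 took 1.29% to 5.92% of the reads of the pair in any library. The 2 genes added up gave 209.4 ± 11.3 CPM (SD, n = 4) in Untreated, 473.7 ± 18.6 (n = 4) in 5-FU day4, 319.9 ± 11.6 (n = 3) in Control and 342.2 ± 15 (n = 4) in Nifedipine. The order of groups seen for Pnp thus does not rest on how the counted reads were divided between the pair. The sum does not cover reads left out for matching both genes, if any were.

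Dpp4 (chr2:62330073-62412318) had 112.9, 112.4, 99.2 and 101.6 CPM in Untreated 1 to 4 and 45.9, 44.8, 62.8 and 55.6 in 5-FU day4 1 to 4. The cultured libraries gave 8.42, 9.91 and 6.73 in Control 1 to 3 and 5.24, 4.28, 5.70 and 5.42 in Nifedipine 1 to 4. No group overlapped another, in the order Untreated, 5-FU day4, Control and Nifedipine. Dpp4 fell by 1.02 on the log2 scale after 5-FU (SE 0.11, adjusted p = 3.25e-05), a level 0.49 times that of Untreated. It was lower by 3.64 in Control than in Untreated (log2 fold change -3.64, adjusted p = 3.81e-08). With nifedipine it fell by 0.70 (SE 0.23, adjusted p = 0.016), a call lost without Control 2 (-0.56, adjusted p = 0.0867).

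CD26 is also known on T cells. The 8 T and NK cell markers summed to 18.7 to 26.2 CPM in Untreated, 12.1 to 17.4 in 5-FU day4, 5.80 to 8.39 in Control and 1.07 to 2.66 in Nifedipine, the same order of groups as for Dpp4. Klrb1c had that order too, at 10.9, 6.56, 0.0726 and 0.0 CPM in Untreated, 5-FU day4, Control and Nifedipine. So did Cd4, at 3.34, 2.2, 0.254 and 0.173 CPM. Other single markers departed from it. Nkg7 was higher in Control (5.9 CPM) than in 5-FU day4 (4.56), and the low Cd3d and Cd8a were highest in Control (0.512 and 0.666). The CD3 chain genes Cd3e and Cd3g had 0 reads in every library. The part of these markers in the Dpp4 values was not tested.

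Genes whose pattern over the 15 libraries was most like that of 3 members were found among 13288 genes by the mean absolute difference of log2 CPM, each gene centred on its own mean. For Dpp4 they were Ildr1 (0.29), Pnck (0.32) and Stx1a (0.32), where the median over all genes was 1.76. Ildr1 and Stx1a had 0 reads in the cultured groups, which limits what the measure can show for them. For Entpd1 they were Itsn1 (0.14), Ano10 (0.18) and Gbp3 (0.19), with a median of 1.05. Itsn1 had 657.3, 517.1, 91.4 and 231.5 CPM in Untreated, 5-FU day4, Control and Nifedipine. For Adora2a they were Zdhhc23 (0.22), Asic3 (0.22) and Celsr1 (0.23), with a median of 1.02.

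The rest of the pathway was read from 7 lists holding 87 further genes of nucleotide hydrolysis, AMP and adenosine formation, salvage, transport, receptors and cyclic AMP signalling. After 5-FU, 20 of the 72 tested rose and 28 fell (66.7% called, against 50.5% of all genes), with a median log2 fold change of 0.01 against -0.02 over all genes tested. With the read total behind the deposited RPKM as library size, 31 rose and 16 fell, as the median of all genes moved to 0.17 and the calls over all genes from 3580 higher and 3185 lower to 5149 and 1844. With nifedipine 18 of 66 rose and 9 fell, 40.9% called against 49.9% of all genes. In Control against Untreated 23 of 72 were higher and 30 lower (73.6% called, against 72.0%), and over all genes 4842 were higher and 4887 lower, or 5835 and 3877 with the RPKM read total, which moved the median of all genes from -0.05 to 0.18.

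Of 7 other tested genes of adenosine removal and purine salvage, 4 rose after 5-FU, namely Pnp2, Aprt (0.96), Hprt (0.95) and Mtap. Xdh fell by 2.00 (SE 0.51, adjusted p = 0.00764), with groups that overlapped. The list median was 0.80 and 71.4% were called, where 50.5% of all genes were. Gda (-0.04) and Adal (0.25) were not called. Hprt, which salvages hypoxanthine and guanine, went from 103.6 to 198.9 CPM (adjusted p = 9.35e-06), and Mtap, which splits the adenosine analogue methylthioadenosine, by 0.80 from 69.1 CPM (adjusted p = 2.96e-05). Aprt, which salvages adenine, was 0.64 with the exon length correction. With nifedipine 2 of the 7 fell (28.6% called, against 49.9%), Mtap by 0.42 (adjusted p = 0.000264) and Aprt by 0.55 (adjusted p = 0.00153), while Hprt had a log2 fold change of 0.01 (adjusted p = 0.957). In Control against Untreated Hprt (1.41), Aprt (1.35, and 0.82 with the exon length correction), Mtap (1.03) and Pnp2 were higher, and 85.7% of the list was called, against 72.0%. Gda, the guanine deaminase, was lower there, at 3.42 against 165.3 CPM (log2 fold change -5.57, adjusted p = 1.97e-08), as was Xdh, the xanthine oxidoreductase that makes uric acid, at 0.81 against 13.1 CPM.

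Among 14 tested genes around AMP and adenosine formation inside the cell, AMP deaminases included, 5 rose and 1 fell after 5-FU (11 and 1 with the RPKM read total), 2 rose and 1 fell with nifedipine, and 8 were higher and 2 lower in Control than in Untreated. The shares called were 42.9%, 21.4% and 71.4%, against 50.5%, 49.9% and 72.0% of all genes. None of these shares, which join both directions, stood above its background under the main scaling. By direction, the 5, 2 and 8 of 14 called higher stand beside 26.7%, 25.8% and 35.8% of all genes. The 1, 1 and 2 called lower stand beside 23.8%, 24.2% and 36.1%. With the RPKM read total the 11 and 1 calls after 5-FU, joined, stood above their background of 6993 of 13384 genes called. That setting gave 10 higher and 1 lower in Control against Untreated. Ahcy, which releases adenosine from S-adenosylhomocysteine, rose by 1.34 after 5-FU (62.4 to 156.8 CPM, adjusted p = 6.67e-06). It fell by 1.13 with nifedipine (326.2 to 149.5 CPM, adjusted p = 1.75e-08) and was 2.42 higher in Control than in Untreated (adjusted p = 9.05e-08). The AMP deaminase Ampd3 moved the opposite way each time, by -0.62 (adjusted p = 0.00742), 2.09 (adjusted p = 1.07e-07) and -2.37 (adjusted p = 4.33e-05). Smaller 5-FU rises were those of Entpd6 (0.51) and Ahcyl1 (0.33, and 0.53 with the RPKM read total). Ampd2 was 0.19 higher with nifedipine (adjusted p = 0.02), a call lost with the RPKM read total, the exon length correction, or without Control 1 or Control 2 (adjusted p = 0.0553, 0.131, 0.06 and 0.0599). In Control against Untreated Ahcyl1 (0.51) and the nucleotidase Nt5c3 (0.68) were higher.

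Of 7 other tested genes for hydrolysis at the surface, 1 rose and 3 fell after 5-FU (57.1% called, against 50.5% of all genes), with a median of -0.54. Alpl, tissue-nonspecific alkaline phosphatase, rose from 0.891 to 3.01 CPM (adjusted p = 0.00232, and 0.0851 in a fit of all 4 groups). Enpp1 fell from 9.30 to 3.19 CPM, Entpd3 from 2.93 to 0.972 and Acpp from 12.1 to 6.05 (adjusted p = 0.0173, and 0.0513 without Untreated 1). Cultured Control cells had 4 of 7 lower than Untreated (57.1% called, against 72.0%), with Cd38 at 1.92 against 23.6 CPM and Acpp at 0.837 against 12.1. Entpd2 (0.203 against 1.02 CPM, adjusted p = 0.0233) lost its call without Control 2 or Control 3 (adjusted p = 0.0646 and 0.0734) and with the replicate number as a block (adjusted p = 0.0975). Enpp3 had 0 reads in Control and 0.857 CPM in Untreated (adjusted p = 0.0168, and 0.0726 with limma-voom), with groups that overlapped. With nifedipine the 4 tested genes Acpp, Entpd3, Enpp1 and Cd38 had log2 fold changes of 0.90, 0.76, -0.22 and 0.08, which did not pass (adjusted p = 0.223, 0.17, 0.569 and 0.927).

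Transport and release genes changed in both directions after 5-FU, with 1 of 6 tested higher and 2 lower, where 50.5% of all genes were called. Panx2, a pannexin, fell from 11.8 to 2.11 CPM (adjusted p = 1.59e-05), and the ATP-releasing channel gene Panx1 rose from 20.6 to 30.7 (adjusted p = 0.0104). Slc28a2, the sodium-driven purine nucleoside transporter, fell by 0.50 (adjusted p = 0.00226; log2 fold change -0.30 with the RPKM read total). With nifedipine Slc28a2 rose by 1.11 (15.4 to 33.3 CPM, adjusted p = 7.16e-07) and Panx1 by 0.48, the 2 calls among 5 tested, where 49.9% of all genes were called. Compared with Untreated, Control had Slc28a2 (-2.10) and Panx2 (0.129 against 11.8 CPM) lower and Panx1 (0.68) higher, 3 calls of 6, where 72.0% of all genes were called.

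Downstream of the receptors, 8 of 27 tested genes of cyclic AMP signalling rose and 13 fell after 5-FU (77.8% called, against 50.5% of all genes), with a median of -0.18. That split depends on the scaling, with 11 higher and 4 lower and a median of 0.02 under the RPKM read total. Adcy9, an adenylyl cyclase, fell by 0.94 (adjusted p = 1.57e-05) and Pde4b, a cyclic AMP phosphodiesterase, by 0.64 (adjusted p = 4.66e-05). Prkar2a, a regulatory subunit of protein kinase A, rose by 0.98 and the transcription factor gene Atf1 by 0.58. With nifedipine 10 of 25 rose and 3 fell, 52.0% called and near the 49.9% of all genes. The 3 with the smallest p among the rises were phosphodiesterases: Pde4b (0.96, from 43.2 to 84.2 CPM), Pde3b (0.82) and Pde4d (0.79, or 0.45 with the exon length correction). Atf1 fell by 0.56 there. In Control against Untreated 8 of 27 were higher and 13 lower (77.8% called, against 72.0%; 10 and 10 with the RPKM read total), among them Pde4d (-1.88, or -0.71 with the exon length correction) and Pde4b (-1.73) lower and Prkar2b (1.66) and Atf1 (1.09) higher.

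P2X and P2Y receptors, many of which bind ATP or ADP, the substrates of CD39, gave 1 rise and 8 falls among 11 tested after 5-FU (81.8% called, against 50.5% of all genes), with a median of -0.58. The split was 2 and 5 with the RPKM read total. The list also holds receptors for other ligands, P2ry14 for UDP sugars and P2ry10 for a lysophospholipid. P2rx7 rose from 5.80 to 22 CPM (adjusted p = 4.03e-05). P2ry12 fell by 1.20, P2ry14 by 0.84, and P2rx1 by 0.44 (-0.24 with the RPKM read total). P2ry12, P2ry1 and P2rx1 are also known on platelets and megakaryocytes, whose 5 markers summed to 36.6 to 46.1 CPM in Untreated, 17.6 to 30.3 in 5-FU day4, 100.3 to 191.5 in Control and 27.8 to 37.0 in Nifedipine, with Gp1bb at 0 reads in Nifedipine. Itga2b was the largest part of the Control sum (mean 95.4 CPM), and Pf4 went from 9.81 to 10.4 CPM after 5-FU. Some moves of the 3 receptors went with the sum. P2ry12 and P2rx1 fell after 5-FU, and P2ry1 was higher in Control than in Untreated (log2 fold change 1.97). With nifedipine P2ry1 (-0.35, adjusted p = 0.0166) and P2rx1 fell, while P2ry12 was not called (-0.18, adjusted p = 0.583). Other moves did not go with the sum. In Control against Untreated P2ry12 was lower (log2 fold change -0.95, adjusted p = 0.00872) and P2rx1 was not called (-0.17, adjusted p = 0.136). After 5-FU P2ry1 had a log2 fold change of 0.53 (adjusted p = 0.0569). The part of these markers in the receptor values was not tested. With nifedipine 4 rose and 3 fell (63.6% called, against 49.9%), among them P2rx3 (2.59, 0.694 to 4.28 CPM) and P2rx4 (0.83) upward and P2rx1 downward, by 0.67. P2ry10 rose by 2.81 from 0.148 CPM (adjusted p = 0.0112), by 4.26 without Control 1, and lost its call without Control 3 (2.61, adjusted p = 0.0513). Relative to Untreated, 2 were higher and 7 lower in Control (81.8%, against 72.0%), with P2ry1 at 32.1 against 8.43 CPM, P2rx4 at 12.6 against 45.4, P2rx7 at 0.115 against 5.80 and P2ry10 at 0.148 against 16.1.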

How the data were processed

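RNA of 100 sorted cells per library was made into cDNA and Nextera XT libraries, a kit that does not mark strand, per the labels' protocols. Each deposited table gives, per the file headers, a whole-number count of exon reads for each gene and an RPKM value. Coordinates are on mm10, named in the submitters' processing notes, with the aligner and counter not given in the sources used here. Counts as deposited were used for every test. The deposited RPKM values served only to recover the read total behind them, used as an alternative library size.

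The 48737 features were joined to 46123 genes by adding up copies of a gene on scaffolds. No member had such a copy. For every comparison only the libraries of its 2 groups entered an edgeR 4.0.16 fit (R 4.3.3; TMM, default filterByExpr, quasi-likelihood F test, group only, two-sided), with Benjamini-Hochberg adjustment over all genes tested and calls at 0.05. Fits were tested on simulated data, where the recovery asked for was lowered after Control against Untreated had missed it, so that test is no evidence of power. The members, lists and tests were chosen with earlier results of these data known, so no test here is independent of them.

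Named genes were all 10 members, Adora1, Adora3, Slc29a2, Pnp2 and Hprt, and up to 4 called genes with the smallest p of each list in each comparison. Likeness was computed for the 3 members with the widest range of group means and at least 10 CPM in the highest group, leaving out predicted and clone names. Xdh in the salvage list was named after its values were seen. Alternatives were DESeq2 1.42.0 and its size factors, limma-voom (limma 3.58.1), the RPKM read total, 2 filters, features as deposited, 1 fit of all groups, an exon length offset, a replicate block and leaving out libraries. Promoter matching found 9 of 10 members. Precision is limited by counting at the depths given, and floors cover counting error only, since reads without molecular identifiers are not independent molecules.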

Additional observations from a re-analysis of the deposited data

Results flagged for a closer look

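Among 30 group values of the 10 members in groups of 4 libraries, 1 had a library far from the rest of its group. In 5-FU day4 4 the Adora2a level was 18.0 CPM, against 20.2 to 20.6 CPM in the other 3 libraries, a gap of 0.842 of the group's range where 0.829 is the critical value for 4. Chance alone gives about 1 such library in 20 groups. Adora2a was not called after 5-FU with or without that library.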

How the results depend on the processing

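Of 542 member values under the alternatives, 519 kept their direction and their side of the threshold, 15 lost their call, 1 gained one and 7 changed sign. Of the 21 called member results, 15 kept their call under every alternative run; the others are given beside their genes. The sign changes were all in results that were not called: Entpd1 after 5-FU (0.101 with the RPKM read total, -0.188 to 0.018 without each library in turn), Adora2a after 5-FU (-0.001 with at least 10 CPM, -0.035 to 0.092 without each library), Adora2b after 5-FU (-0.015 to 0.367 without each library) and Nt5e with nifedipine (-0.23 to 0.197 without each library; 0.031 without Nifedipine 3). The cause was not tested. Without each library, 5 to 7 members were called for 5-FU, 4 to 6 for nifedipine and 8 for Control against Untreated. Leaving out Untreated 2 and 5-FU day4 4, a choice made after seeing the data, left 7 calls, 4 higher and 3 lower. In Control against Untreated the median of all genes was also -0.27 with DESeq2 and -0.21 with no filter.

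With the replicate number as a block, 7, 6 and 8 members were called in the 5-FU, nifedipine and Control against Untreated comparisons, and 6331, 6283 and 9002 of all genes. Correlations of the deviations of same-numbered libraries were -0.141 to 0.163 for 5-FU, 0.0121 to 0.0475 for nifedipine and 0.00444 to 0.0328 for Control against Untreated. They did not pass 0.1 in every pair of any comparison, and not every library correlated best with its own number, so the numbers were not used to pair libraries. What the numbers mark is not stated in the labels. Low reads limit Nt5e, Adora2b, Adora1 and Adora3.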
